A study of Mus musculus with 4 samples.

Results

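Cells with more than 6000 detected genes, and with under 20% of their RNA molecules from mitochondrial genes, were chosen by these 2 measured values from 4 single-cell RNA libraries of the neonatal mouse small intestine. A gene counted as detected in a cell when at least 1 of its unique molecular identifiers (UMIs, the tags that mark single RNA molecules) was present, and genes were counted only if seen in at least 3 cells of the library. The rule found 3139 cells among 36202 called cells (8.67%). They held 85140573 of the 378810858 UMIs of the series (22.5%). The study kept cells of 1000 to 6000 genes, so these cells stood outside its filter. They are compared below with the 11613 cells of 4000 to 6000 genes from the same libraries, called reference cells.

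The libraries hold cells of 2 gut regions, the medial jejunum and the ileum, from each of 2 untreated wild-type mice aged 6 postnatal days, with no altered allele or transgene named. Replicate 1 of the ileum and replicate 1 of the jejunum therefore share a mouse and a batch, as do the replicates 2. The epithelium was shaken off with EDTA and dissociated with dispase before cells were caught in emulsion droplets (PIPseq). With 2 mice, mouse, batch and labelled sex cannot be told apart, and p-values between regions measure the spread between these libraries.

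Before weaning, enterocytes of the small intestine take up milk fat and whole milk proteins. Those of the ileum carry large lysosomal vacuoles in which protein is digested, and those of the jejunum pass antibody and other protein across the epithelium. Enterocytes arise from dividing crypt cells and change their RNA while they migrate up the villus. In droplet data the number of genes seen in a cell rises with the number of its RNA molecules that were counted. An upper limit on genes is used to remove droplets that caught more than 1 cell, and it also removes single cells with much RNA.

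The labelled sex did not match Xist or Eif2s3y in any of the 4 libraries. In the cells above the limit, Xist, which is expressed from the inactive X chromosome, was at 460 and 391.9 CPM (UMIs of a gene scaled to 1000000 UMIs in all) in the ileum and jejunum of replicate 1, labelled male. It was at 0.737 and 1.21 CPM in replicate 2, labelled female. Eif2s3y, on the Y chromosome, had the opposite order, with 0.0454 and 0 CPM in replicate 1 against 92.5 and 80.2 CPM in replicate 2. Kdm5d, also Y-linked, had the order of Eif2s3y, with 0.52 and 1.59 CPM in replicate 1 against 16.8 and 10.6 CPM in replicate 2. Uty was at 0.68 CPM in the ileum of replicate 1 but at 109 CPM in its jejunum, beside 113 and 64.3 CPM in replicate 2, and Ddx3y was at 110 and 89.6 CPM in replicate 1 beside 239 and 226 CPM in replicate 2. Uty and Ddx3y have close homologues on the X chromosome, and whether reads were shared with them was not tested. Replicates are therefore named by number only, and no comparison used sex. Cell barcodes shared between libraries numbered 2 in all, and none belonged to a cell above the limit.

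The cells above the limit were mostly ileal. The 2 ileal libraries held 1634 and 1118 of them and the 2 jejunal libraries 135 and 252, replicate 1 first. Their share of the called cells was 18.2% in ileum replicate 1 (95% exact binomial interval 17.4 to 19.0%) and 11.5% in ileum replicate 2 (10.9 to 12.2%). It was 1.35% in jejunum replicate 1 (1.13 to 1.60%) and 3.34% in jejunum replicate 2 (2.95 to 3.77%). The ileal and jejunal libraries did not overlap, with means of 14.9 ± 4.74% and 2.35 ± 1.41% (SD, n = 2 each) and a difference of 12.5 percentage points. The exact two-sided permutation test gave p = 0.333, the smallest value that 2 libraries against 2 allow. In replicate 1 the share was higher in the ileum than in the jejunum, and the same held within replicate 2. The ileal libraries held 131400239 and 125067265 UMIs and the jejunal ones 64391480 and 57951874. Median depth per called cell was 15622 and 12543.5 UMIs in the ileum and 4275 and 4786 UMIs in the jejunum. Region and depth of the library cannot be told apart in these shares.

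The position of the limit on each library's distribution differed between regions. Among cells of 4000 or more genes, the fullest bin of 100 genes was 5701 to 5800 in both ileal libraries, with 377 and 322 cells, just under the limit. In the jejunum it was 4101 to 4200 genes in replicate 1 and 4801 to 4900 in replicate 2, with 118 and 106 cells. Values for the 4 libraries are given from here on in the order ileum replicate 1, ileum replicate 2, jejunum replicate 1, jejunum replicate 2. Just inside the rule, over 6000 and up to 6100 genes, there were 356, 215, 26 and 51 cells. Just outside it, over 5900 and up to 6000 genes, there were 352, 267, 24 and 53 cells. The median depth of these neighbouring bins was 23050 and 22120.5 UMIs in ileum replicate 1, and 26868 and 25417 UMIs in jejunum replicate 2. No gap in the distributions marked the limit.

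**Figure D1:**
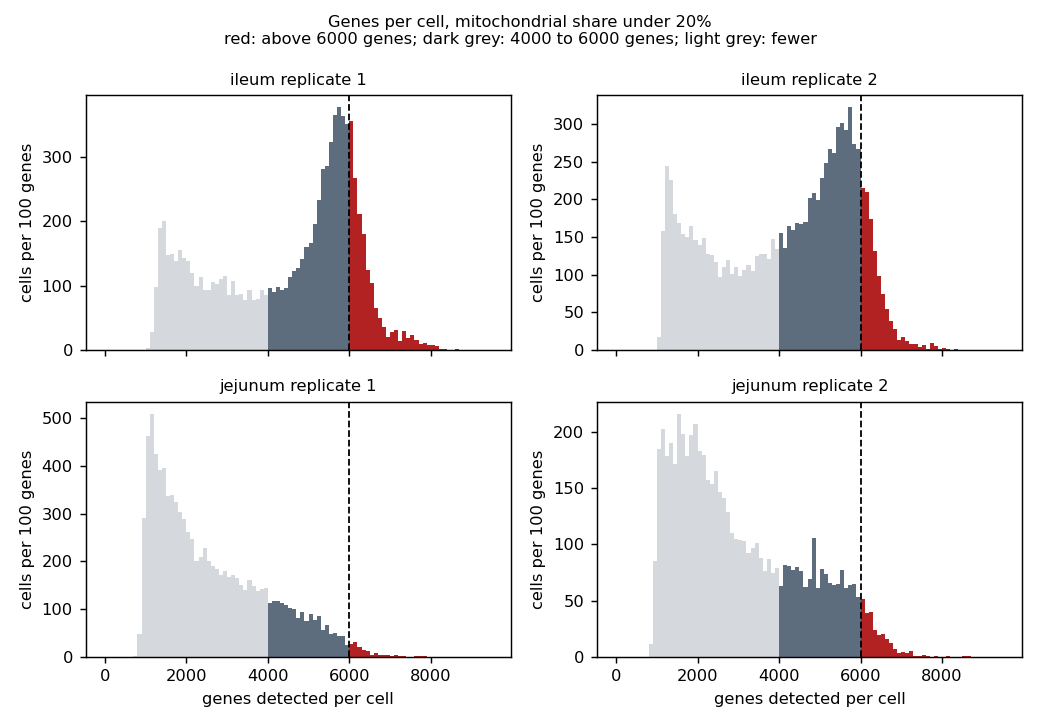
Number of cells (y axis, per bin of 100 genes) against genes detected per cell (x axis) in the 4 libraries, for cells with under 20% mitochondrial UMIs, with cells above 6000 genes in red, reference cells in dark grey and other cells in light grey. The dashed limit falls beside the fullest upper bin of the ileal libraries, at 5701 to 5800 genes, and in the falling tail of the jejunal libraries.

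Most of the cells lay near the limit. Of the 3139 cells, 2245 (71.5%) had up to 6500 genes, 565 had over 6500 and up to 7000, and 329 had over 7000. The last came to 216, 81, 11 and 21 cells. The median number of genes was 6288.5, 6279.5, 6258 and 6280 and the highest was 9064.

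They were also deeper than the reference cells. Median depth was 25215 and 25562 UMIs in the ileum and 26977 and 28442 UMIs in the jejunum, beside 18061.5, 16820, 14579.5 and 16429 UMIs in the reference cells. The cells above the limit were thus 1.40 and 1.52 times as deep as reference cells in the ileum, and 1.85 and 1.73 times as deep in the jejunum. Against all cells within the study's limits the ratios were 2.09, 2.34, 5.75 and 4.83. Cells with more than 2 times the reference median numbered 142 and 69 in the ileal libraries (8.69 and 6.17%), but made up 30.4 and 19.8% of the jejunal ones, at 41 and 50 cells. The jejunal cells above the limit therefore stood farther from the rest of their library than the ileal ones, which bears on each regional comparison of the 2 groups of cells given below.

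Mitochondrial share did not set these cells apart by the study's limit. All 3139 cells with over 6000 genes had a share under 20%, and their highest shares were 5.10, 5.49, 5.23 and 7.42% in the 4 libraries. Their median was lower than that of the reference cells in each library, at 2.80 against 3.18% and 2.96 against 3.19% for the ileal libraries, then 3.18 against 3.604% and 3.80 against 4.32% for the jejunal libraries.

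At equal depth most of the difference in gene number was gone. Unthinned, the reference cells had medians of 5410, 5210, 4734 and 4929 genes, beside the medians above 6000 by rule. Each cell was thinned at random to 10000 UMIs, leaving out 49, 32, 11 and 13 reference cells that were shallower and none above the limit. At that depth the cells above the limit had a median of 4133 and 4086 genes in the ileum against 4053 and 4020 in the reference cells. In the jejunum they had 3992 and 3898 genes against 3888 and 3820. The differences of 80, 66, 104 and 78 genes averaged 82.0 ± 15.9 genes (SD, n = 4 libraries), or 1.64 to 2.67% of the reference value. Because the number of genes chose the cells, these values are a description and were not tested.

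At 5000 UMIs the differences were 54, 42, 66 and 54 genes, and at 20000 UMIs they were 108, 73, 100.5 and 84 genes. The median at 10000 UMIs rose with the gene number of the unthinned cells in each library, from 4021 at under 5000 genes to 4233 at over 7000 genes in ileum replicate 1, and from 3790 to 4057 in jejunum replicate 2. Cells of both groups were also taken from 1 window of depth, 22000 to 26000 UMIs. There the cells above the limit had 6161, 6153, 6107 and 6193 genes and the reference cells 5916, 5916, 5821 and 5772.5, a gap that the limit itself imposes in part.

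**Figure D2:**
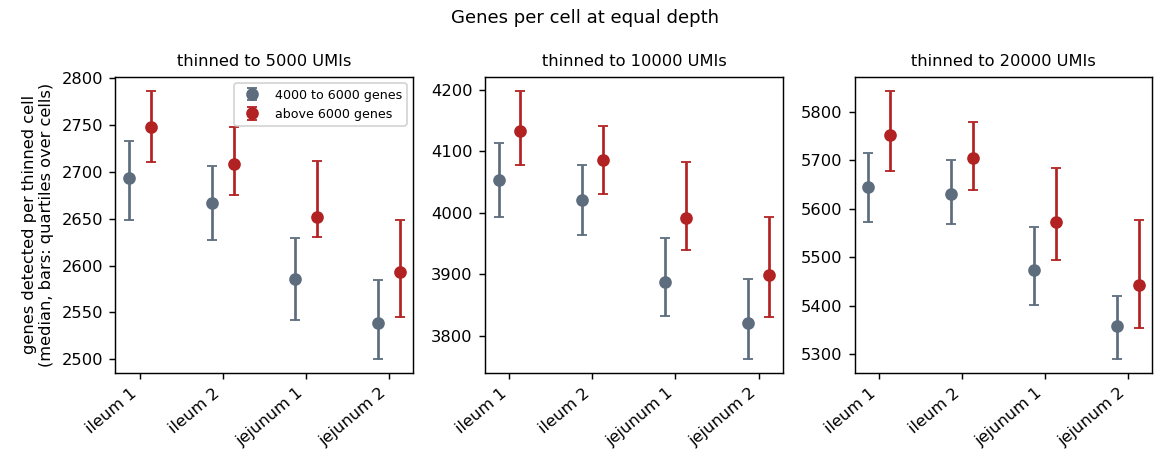
Median genes per cell (y axis, with bars from the lower to the upper quartile over cells) after thinning each cell to 5000, 10000 or 20000 UMIs, for reference cells in grey and cells above 6000 genes in red, by library (x axis). The red median is above the grey one in every library and at every depth, by 66 to 104 genes at 10000 UMIs, and the quartile ranges overlap except in jejunum replicate 1 at 5000 UMIs, where they touch at 2631 and 2630 genes.

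All the cells above the limit carried enterocyte RNA. At least 3 of 14 enterocyte markers, such as Alpi (intestinal alkaline phosphatase), Fabp2 (a fatty acid binding protein) and the lactase gene Lct, were detected at 10000 UMIs in each of the 3139 cells and in each of the 11508 reference cells that reached this depth. Enterocyte RNA in a droplet therefore could not separate the groups, and free RNA of this abundant class was not distinguished from RNA of the cell. No marker list for another class was seen as widely.

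Other classes were counted at the same depth, a class being seen where at least 3 of its markers had a UMI. Goblet cell markers such as Muc2, the main gel-forming mucin, met this in 34, 16, 1 and 1 cells above the limit (2.08, 1.43, 0.74 and 0.40%), against 3.44, 1.93, 0.87 and 0.50% of reference cells. Enteroendocrine, tuft and immune markers met it in 5, 8 and 5 of the 3139 cells (0.159, 0.255 and 0.159%), against 0.261, 0.130 and 0.209% of reference cells. Paneth, mesenchymal, neural and red blood cell markers met it in 0 of 3139 cells, which allows shares of up to 0.0956% each of cells with such UMIs at this depth, not of cells that express the genes. Endothelial markers met it in 2 cells. Unthinned, the goblet shares were 15.1, 11.4, 1.48 and 1.98% above the limit and 9.71, 5.28, 1.36 and 1.62% in reference cells.

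With 2 markers required in place of 3, fibroblast and muscle markers were seen in 3 cells above the limit (0.0956%) and neural and glial markers in 7 (0.223%). Endothelial markers were seen in 67 cells (2.13%). These are cell types that an EDTA release of epithelium should hardly contain, and their shares at 10000 UMIs differ, as the lists do in length and level. The goblet share by this looser measure was 16.5%, and reference cells gave 0.113, 0.295, 2.56 and 17.2% for the 4 lists in the same order.

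At equal depth, the difference in the share of cells with markers of 2 classes was smaller than its spread and had no stable direction. Counting 11 classes besides enterocyte with at least 2 markers each, 17.4, 16.3, 18.5 and 25.8% of the cells above the limit had 2 or more classes, against 20.7, 18.3, 20.6 and 22.8% of reference cells. The mean difference was -1.08 ± 2.82 percentage points (SD, n = 4), smaller than its spread, with jejunum replicate 2 going against the other libraries. For cells above 7000 genes alone the mean difference was 11.5 ± 15.4 points in the other direction. It was 0.562 points at 5000 UMIs and 1.91 points at 20000 UMIs, and -2.45 points without jejunum replicate 2. Without thinning, the shares were 73.9, 76.1, 72.6 and 75.8% against 51.9, 46.0, 39.5 and 48.7%. Droplets that hold 2 cells of the same class cannot be counted in this way.

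With 3 markers required, the shares were 2.02 and 0.36% above the limit against 2.72 and 1.66% in the ileum, and 8.15 and 17.1% against 6.56 and 9.07% in the jejunum. Nearly all of these cells paired stem markers with cell cycle markers, which crypt progenitors carry together. Stem and cell cycle markers were seen together in 25, 3, 10 and 43 cells above the limit, 81 in all. When the 2 lists were counted as 1 class, a choice made after the values were seen, 14 of 3139 cells above the limit and 45 of 11508 reference cells had markers of 2 classes.

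The share of cells with cell cycle RNA was higher above the limit in each library, by an amount that depended on the number of markers required. The summed cell cycle level was 187, 177, 389 and 575 CPM above the limit against 209, 194, 317 and 375 CPM, so it was lower in both ileal libraries. At 10000 UMIs, at least 3 of 14 cell cycle markers (among them Mki67, Top2a and Pcna, which mark dividing cells) were seen in 17.8 and 26.6% of jejunal cells over the limit, beside 13.7 and 15.5% of jejunal reference cells. In the ileum the shares were 9.18 and 10.5% against 8.94 and 9.78%. The 95% exact binomial intervals above the limit were 7.82 to 10.7% and 8.73 to 12.4% in ileum replicates 1 and 2. In jejunum replicate 1 the interval was 11.7 to 25.3% (24 of 135 cells), and in jejunum replicate 2 it was 21.2 to 32.5% (67 of 252 cells). Such intervals cover the counting of cells only, and cells are not replicates. Because the number of genes chose the cells, no difference between the groups in these shares was tested. With 2 markers required, the shares were 36.7, 39.4, 39.3 and 50.8% above the limit against 34.1, 35.1, 38.2 and 38.8%. Jejunum replicate 1 then differed less than the ileal libraries. Stem markers such as Lgr5 and Olfm4 were seen in 10.4 and 18.7% of jejunal cells above the limit against 8.12 and 11.1%, and in 2.999 and 2.06% of ileal ones against 4.31 and 3.25%. The value of jejunum replicate 1 rests on 14 of 135 cells (95% exact binomial interval 5.79 to 16.8%). The summed stem level was 90.4, 75.4, 235 and 539 CPM above the limit against 136, 108, 332 and 442 CPM, higher in jejunum replicate 2 alone. Unthinned, cell cycle markers were seen in 56.3 and 62.3% against 23.9 and 28.0% for the jejunum and in 39.96 and 47.5% against 22.9 and 23.9% in the ileum.

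In the space of gene expression the cells above the limit lay among reference cells but nearer to each other than their number gives. Within each library, cells of both groups were thinned to 10000 UMIs and the 30 nearest neighbours of each were taken over 30 principal components. Of the neighbours of a cell above the limit, 40.5, 35.1, 18.05 and 33.6% were above the limit too, where such cells made up 28.8, 20.1, 7.78 and 15.2% of the cells. The excess was 13.9 ± 3.67 percentage points (SD, n = 4). Cells with no neighbour above the limit made up 0.0612, 0.179, 3.70 and 1.59%, and cells with most neighbours above it 22.9, 14.9, 0.741 and 13.1%. At 20000 UMIs, which 1188, 1015, 214 and 378 reference cells reached, the excess was 4.59 points.

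Few genes differed by much between the cells above the limit and reference cells. Counts were summed per library and group, scaled to CPM, and compared as log2 ratios with 5 CPM added. Among 8915 genes with at least 10 CPM, 51 (0.572%) had a mean log2 ratio beyond 0.5 with 1 direction in all 4 libraries, 5 of them higher (0.0561%) and 46 lower (0.516%) above the limit. The count was 116 and 100 without ileum replicates 1 and 2 in turn, and 24 and 33 without jejunum replicates 1 and 2. It was 505 for cells above 7000 genes, 13 against reference cells of 5000 to 6000 genes, 90 with 1 CPM added and 78 with each cell thinned. The median over genes was 0.04. By direction alone, 2654 genes (29.8%) were higher and 1083 (12.1%) lower in all 4 libraries. The median size of the log2 ratio was 0.06 and 0.08 in the ileum and 0.16 in both jejunal libraries. Since the contrast is the one that chose the cells, these are descriptions without a test.

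Of 28 gene lists, 19 had a summed level with 1 direction in all 4 libraries, the ratios of sums being taken with nothing added. Cytosolic ribosomal protein genes, whose products build the ribosome, were higher above the limit by a mean log2 ratio of 0.22 ± 0.16 (SD, n = 4). Their summed level was 49857, 51153, 55510 and 57557 CPM above the limit and 47403, 47012, 46425 and 42633 CPM in the reference cells. Of 80 measured members, 69 were higher in all 4 libraries and none was lower in all 4, beside the 29.8 and 12.1% of all genes. Reads of ribosomal protein genes can be lost to their pseudogenes, so single members are uncertain.

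The enzymes of cholesterol synthesis, such as Hmgcs1 and Sqle, were higher by 0.23 ± 0.11, with 15 of 19 measured members higher in all 4 libraries and none lower. Of all genes, 29.8% were higher and 12.1% lower in all 4 libraries. Nuclear genes of the respiratory chain were higher by 0.11 ± 0.03, with 13 of 20 higher in all 4. The 13 genes encoded by the mitochondrial genome went the other way, by -0.22 ± 0.04, with 10 lower and 1 higher in all 4 libraries, and their share of UMIs is also what the mitochondrial limit is set on. Their summed level was 28309, 30006, 32257 and 38649 CPM above the limit against 33045, 33896, 37756 and 46678 CPM.

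Lysosomal genes, which encode the enzymes and membrane proteins of the digestive vacuoles, were lower by a mean of -0.30 ± 0.24, and far more in the jejunum. Their summed level was 28564 and 30269 CPM in the ileum against 31139 and 31633 (ratios 0.92 and 0.96). In the jejunum it was 14208 and 14361 CPM against 20422 and 20060 (ratios 0.70 and 0.72). Of 40 measured members, 17 were lower and 2 higher in all 4 libraries, beside 12.1 and 29.8% of all genes. Genes of apical endocytosis, including Cubn, Amn and Dab2 of the receptor complex for luminal protein, were lower in sum by -0.16 ± 0.13. Of 23 members 3 were lower and 6 higher in all 4, near the shares of all genes, so the members showed no direction of their own. Fcgrt, the neonatal Fc receptor, was at 777, 780, 1873 and 2383 CPM above the limit and at 960, 1024, 2987 and 3271 CPM in the reference cells.

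Enterocyte markers were lower by -0.15 ± 0.05, with 6 of 14 lower and 1 higher in all 4 libraries. Of all genes, 12.1% were lower and 29.8% higher in all 4, the shares to set beside each count below. Genes of fat absorption and chylomicron assembly were lower by -0.13 ± 0.06, with 9 of 24 measured members lower and 2 higher. Genes of the villus tip, where enterocytes are oldest, were lower in sum by -0.21 ± 0.07. Of 8 measured members 3 were lower and none higher in all 4 libraries, and the median over members was -0.02. The sum is mostly Apoa4, an apolipoprotein of chylomicrons that is also on the enterocyte list, at 4878 of 6782 CPM in ileum replicate 1. Genes of the villus base, such as the antimicrobial genes Dmbt1 and Lypd8, were higher by 0.37 ± 0.34, mainly in the jejunum. The ratio was 0.07 in both ileal libraries, and 0.69 and 0.64 in the jejunal ones. Of 9 measured members 4 were higher in all 4 libraries and none lower, not far from the share of all genes. The summed level of this list was 1173, 858, 1859 and 1363 CPM, beside 1114, 819, 1149 and 877 CPM in reference cells.

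Among lists for other cell types, goblet genes were lower by -0.34 ± 0.26, with summed levels of 159, 137, 30.7 and 32.3 CPM against 176, 147, 45.9 and 47.2. The immune list stood at 213, 203, 113 and 149 CPM against 216, 188, 184 and 220, with no common direction. The fibroblast and muscle list stood at 3.96 to 5.51 CPM above the limit and 3.53 to 5.597 CPM in reference cells, and the red blood cell list at 0.403 to 1.59 and 0.322 to 5.82 CPM. Immediate early genes, which respond to dissociation, were lower by -0.04 ± 0.03 and stress genes had a ratio of 0.03 ± 0.04, higher in 3 of 4 libraries.

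**Figure D3:**
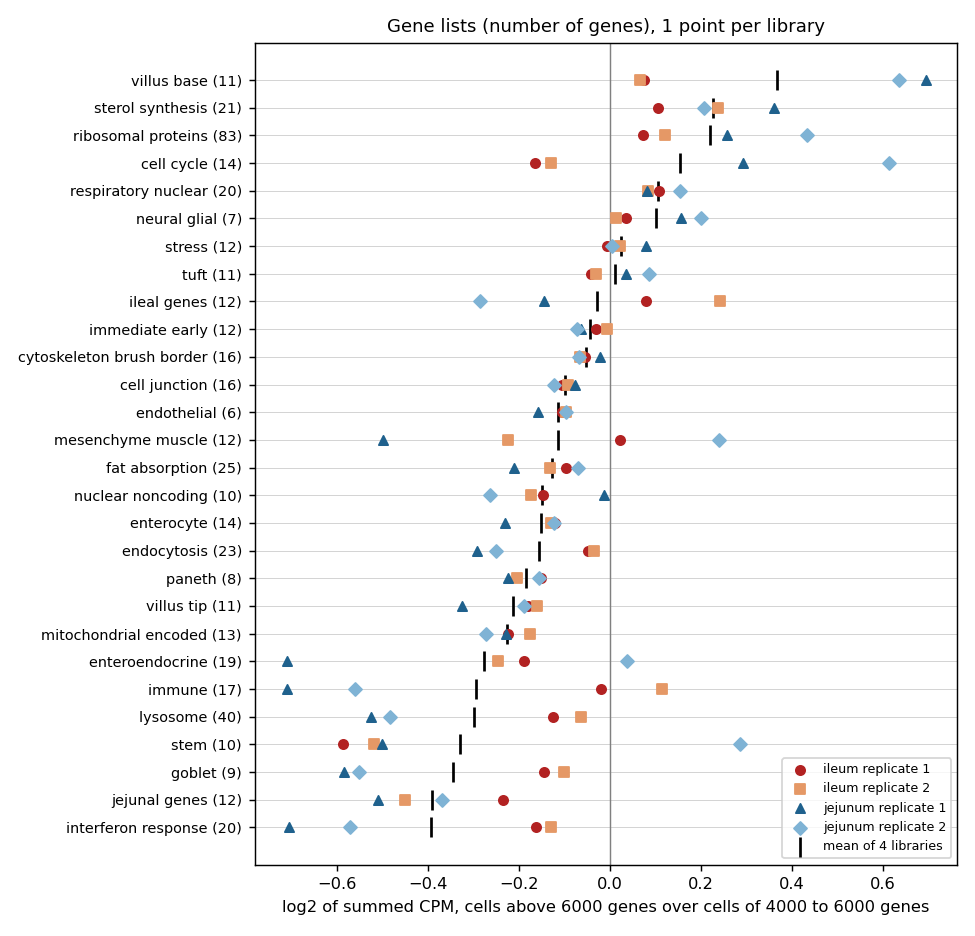
Log2 ratio of the summed CPM of each gene list (x axis) between cells above the limit and reference cells, with 1 point per library and a bar at the mean of 4 libraries; the number of genes is given beside each list name. Villus base, sterol synthesis and ribosomal protein lists lie right of 0 in every library, lysosomal, enterocyte and mitochondrial lists lie left of 0 in every library, and the cell cycle list is left of 0 in both ileal and right of 0 in both jejunal libraries; the red blood cell list, whose mean has an SD of 2.24, is not drawn.

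Split by gene number, the summed lysosomal and enterocyte levels fell from bin to bin in both jejunal libraries. From the bin of 4000 to under 5000 genes to the bin of over 7000 genes, the summed lysosomal level went from 22995 to 11674 CPM in jejunum replicate 1 and from 22257 to 10104 CPM in jejunum replicate 2, and from 29557 to 27736 and 32632 to 26432 CPM in the ileum. Enterocyte markers went from 43576 to 27579 and 43794 to 30675 CPM in the jejunum. Ribosomal protein genes went from 41846 to 65501 and 37697 to 75170 CPM there, against 46794 to 48167 and 43101 to 53854 CPM in the ileum. Stem genes in the ileum moved mainly below the limit, from 278 to 99.0 CPM in replicate 1 and from 157 to 87.5 CPM in replicate 2 between the bins of under 5000 and of 5000 to 6000 genes.

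Cell cycle genes rose chiefly in the last jejunal bins. Their sum in jejunum replicate 2 was 418 CPM at up to 6500 genes, 657 at over 6500 and 1295 at over 7000, and in jejunum replicate 1 it was 315, 361 and 932 CPM. In the ileum the bins above the limit held 171 to 210 CPM. The highest bins rest on 11 cells in jejunum replicate 1 and 21 in jejunum replicate 2, so they describe few cells. Without its bin of over 7000 genes, jejunum replicate 1 showed 361 CPM at most above the limit, beside 329 CPM at 5000 to 6000 genes.

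**Figure D4:**
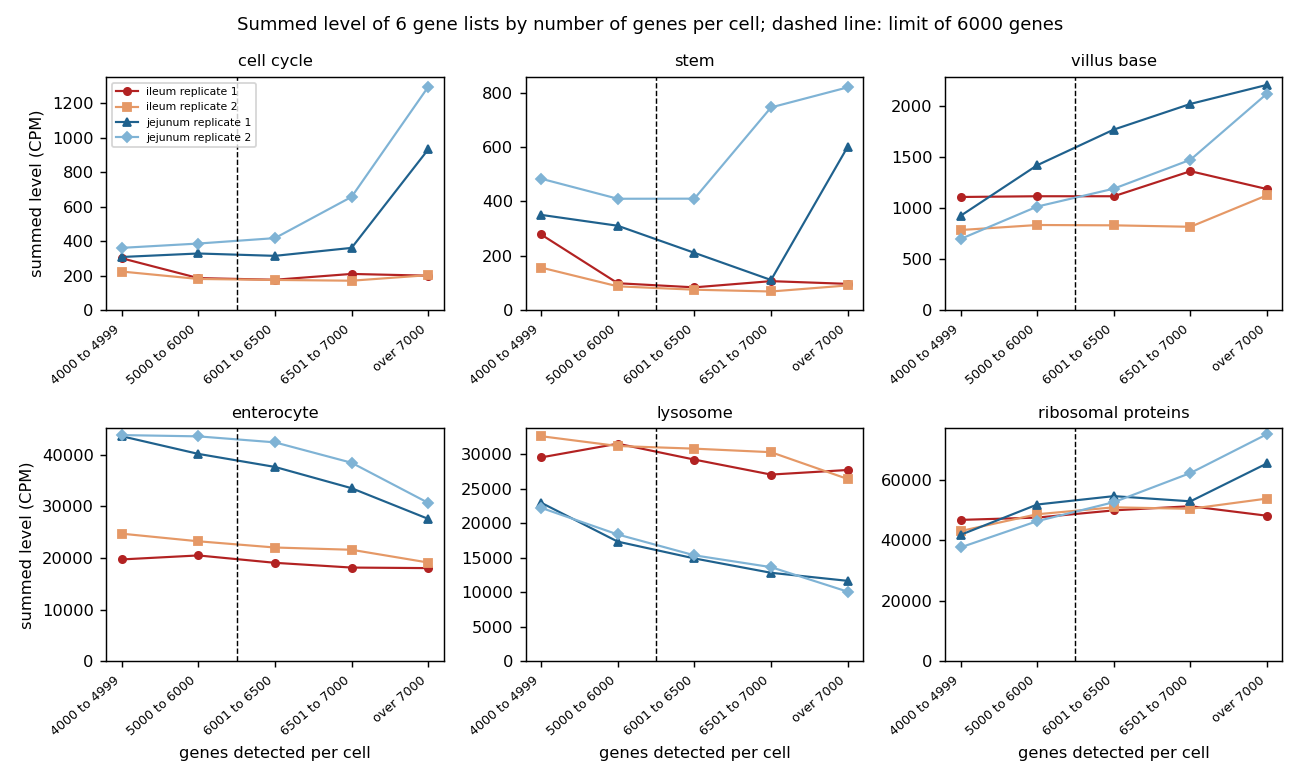
Summed level in CPM (y axes, from 0) of 6 gene lists in cells binned by genes detected (x axes), with 1 line per library and the limit of 6000 genes dashed. In the jejunum the lysosomal and enterocyte lines fall and the villus base and ribosomal lines rise across the limit, and the cell cycle lines climb to 932 and 1295 CPM in the highest bin, which holds 11 and 21 cells.

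Named genes higher above the limit were few, and 5 passed both the size and the level of 20 CPM set for naming. Rps23, a protein of the small ribosomal subunit, was at 267, 222, 312 and 368 CPM against 209, 146, 160 and 171 (mean log2 ratio 0.74 ± 0.33). Gapdh, a glycolytic enzyme, was at 118, 106, 136 and 148 CPM against 97.7, 76.7, 85.3 and 89.999 (0.51 ± 0.20). Nop10, part of the particles that modify ribosomal RNA, was at 68.9, 80.0, 104 and 98.1 CPM against 57.2, 66.9, 57.4 and 57.6 (0.50 ± 0.30). Each was higher in 4 of 4 libraries. Bcl2l15, of the BCL2 family, had a ratio of 0.52 ± 0.39 and was at 4.97 CPM in jejunum replicate 2 against 2.71.

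Ftl1, the light chain of the iron store ferritin, was higher at 1487, 1500, 822 and 934 CPM against 1194, 908, 546 and 500 (0.63 ± 0.24). Its near-identical copy Ftl1-ps1 was lower in every library, at 472, 608, 446 and 441 CPM against 711, 989, 823 and 809 (-0.76 ± 0.14). Reads may be split between the copies, and the sum of both differed by ratios of 1.03, 1.11, 0.925 and 1.05, so neither direction is certain for the gene.

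Among the genes that were lower, lysosomal proteases showed the regional pattern of their list. Lgmn (legumain, an endopeptidase of late endosomes and lysosomes) was at 3312 and 2757 CPM in the ileum against 4185 and 3007, and at 362 and 255 CPM in the jejunum against 1197 and 827 (mean -0.96 ± 0.85). Ctsl (cathepsin L) was at 1383 and 1707 CPM against 1653 and 1992 in the ileum, and at 720 and 878 CPM against 1846 and 1798 in the jejunum (-0.72 ± 0.57). Both were lower in 4 of 4 libraries, by much less in the ileum than in the jejunum. Gpx3, a secreted glutathione peroxidase, followed the same course (-0.71 ± 0.71), at 3667 and 4166 CPM against 4127 and 4239 in the ileum and 591 and 595 against 1560 and 1420 in the jejunum.

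Other named genes with lower levels encode proteins of varied kinds. Enpp3, which cleaves extracellular nucleotides, was at 193, 153, 29.6 and 22.0 CPM against 270, 189, 126 and 98.3 (-1.16 ± 0.89). Enpp7, the alkaline sphingomyelinase that digests milk sphingomyelin, was at 27.5, 20.6, 8.99 and 10.1 CPM against 33.2, 25.8, 36.1 and 38.8 (-0.90 ± 0.75). The organic anion transporter gene Slc22a27 was at 45.1, 60.1, 37.3 and 34.9 CPM against 86.9, 113, 105 and 106 (-1.15 ± 0.33), and its ratio was large in the ileum as well, at -0.88 and -0.85. Adgb, which encodes androglobin, was at 84.3, 111, 77.4 and 78.4 CPM against 145, 181, 160 and 168 (-0.87 ± 0.19).

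Slc9a9, an endosomal sodium-proton exchanger, had a mean of -0.84 ± 0.57 but only -0.09 in jejunum replicate 2, where it stood at 93.6 CPM against 99.9. Apcdd1, an inhibitor of Wnt signalling, had -0.73 ± 0.72, with -0.03 in ileum replicate 1. The interferon-induced antiviral genes Rsad2 and Ifit3 were lower by -0.91 ± 0.54 and -0.82 ± 0.54, with Rsad2 at 32.8, 29.9, 29.3 and 30.1 CPM against 45.1, 44.2, 77.9 and 92.5.

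Within the cells above the limit, the ileum and the jejunum were compared over the 4 libraries, on sums of 44012771, 29785808, 3778149 and 7427159 UMIs. Region played no part in the choice of the cells. Of 15394 genes tested, 2055 (13.3%) passed an adjusted p under 0.05 in edgeR's quasi-likelihood test, 1035 higher in the ileum (6.72%) and 1020 higher in the jejunum (6.63%), and in 2053 of them both mice had the direction of the fit. With the mouse as replicate block, 3906 genes passed, 2054 of them shared. Without jejunum replicate 2 the count was 729. In such sums, more cells of a kind and more RNA per cell cannot be told apart.

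Genes of lysosomal digestion were higher in the ileum. Of 40 tested, 29 were higher in the ileum and none in the jejunum, beside 6.72 and 6.63% of all genes. Lgmn, at the levels given above, was higher by a log2 fold of 3.29 (SE 0.21, edgeR adjusted p = 0.0012). Hexa, a subunit of the lysosomal hexosaminidase, had 942 and 1103 CPM in the ileum and 371 and 359 CPM in the jejunum (1.47, SE 0.16, edgeR adjusted p = 0.0037). Gaa, the acid glucosidase, was at 289 and 320 CPM against 111 and 101 (1.51, SE 0.16). The regions did not overlap for any of these. Without jejunum replicate 2, 13 of the 40 passed, and without jejunum replicate 1, 20.

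Cholesterol synthesis was higher in the ileum too, with 18 of 21 genes passing and none in the other direction. Sqle, the squalene epoxidase, had 78.5 and 74.6 CPM in the ileum and 14.3 and 12.0 CPM in the jejunum (log2 fold 2.54, SE 0.19, edgeR adjusted p = 0.0013). Fdps, the farnesyl diphosphate synthase, was at 253 and 235 CPM against 76.9 and 45.03 (2.00, SE 0.25). Without jejunum replicate 2, 7 of the 21 passed. Of the 9 goblet list genes, 8 were tested and 3 (Fcgbp, Muc2 and Tff3) were higher in the ileum.

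Dividing and stem cell genes were higher in the jejunal cells. Of 14 cell cycle genes, 11 were higher in the jejunum and none in the ileum, and of 10 stem genes 8 were. The shares of all genes were 6.63% higher in the jejunum and 6.72% in the ileum. Mki67 had 4.76 and 2.21 CPM in the ileum and 31.2 and 42.3 CPM in the jejunum (log2 fold -3.41, SE 0.38, edgeR adjusted p = 0.0037). Top2a, a topoisomerase of dividing cells, was at 6.22 and 2.41 CPM against 43.9 and 54.8 (-3.53, SE 0.42). Lgr5, the receptor that marks crypt stem cells, was at 2.70 and 2.38 CPM against 9.25 and 15.9 (-2.35, SE 0.34), and Olfm4, another crypt marker, at 10.1 and 3.75 CPM against 74.5 and 254 (-4.60, SE 0.70). With cells left out that had markers of 2 or more classes, 5 of 14 cell cycle genes were higher in the jejunum. Of 8 stem genes tested, 2 were then higher in the jejunum and 1 in the ileum. Stem and cell cycle markers are 2 of the classes counted, so this choice removes cells by the RNA of these lists. The smaller counts therefore cannot be read as a result.

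Of 25 fat absorption genes 9 were higher in the jejunum and none in the ileum, beside 6.63 and 6.72% of all genes. Cd36, a fatty acid receptor, had 2.09 and 1.88 CPM in the ileum and 47.6 and 89.5 CPM in the jejunum (log2 fold -5.14, SE 0.36, edgeR adjusted p = 0.0013). Fabp1, the liver-type fatty acid binding protein, was at 150 and 614 CPM against 7651 and 9184 (-4.47, SE 0.65), and Apoc2, an activator of lipoprotein lipase, at 525 and 581 CPM against 2215 and 4079 (-2.53, SE 0.30). The transporter gene Mfsd2a was at 0.59 and 0.40 CPM against 96.2 and 363 (-8.84, SE 0.79). Fcgrt was higher in the jejunum too (-1.47, SE 0.18).

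The named genes with the highest folds toward the ileum had almost no RNA in the jejunum. Scd2, a fatty acid desaturase, had 16159 and 6647 UMIs in the ileal and 1 and 0 UMIs in the jejunal cells above the limit, a ratio per UMI of 3463 with a 95% counting interval from 621 to 136784. Fabp6, the ileal bile acid binding protein, had 11097 and 18043 UMIs against 1 and 1 (ratio 2212, interval 612 to 18269). Il18r1, a subunit of the interleukin 18 receptor, had 1444 and 568 UMIs against 1 and 0 (306, interval 54.8 to 12073). These intervals cover counting error only. The log2 folds of Scd2, Fabp6 and Il18r1 were 11.6, 11.2 and 8.05 above the limit and 8.84, 10.2 and 7.10 in reference cells. These regional differences were thus not particular to the cells above the limit.

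For other ileal genes more UMIs were found in the jejunum. Afp, the fetal plasma protein alpha-fetoprotein, was at 190 and 307 CPM against 3.17 and 0.94 (log2 fold 7.12, SE 0.50, edgeR adjusted p = 0.0013). Slc38a3, a glutamine transporter, was at 59.9 and 52.5 CPM against 2.11 and 1.21 (5.16, SE 0.28), and B4galt1, a galactosyltransferase, at 69.0 and 57.7 CPM against 3.17 and 1.34 (4.94, SE 0.34). The imprinted noncoding RNA Meg3 was at 149 and 50.9 CPM against 0.79 and 0.13 (8.05, SE 0.83), on 4 jejunal UMIs. Anxa8 (an annexin), Ints6l, Fgb (the fibrinogen beta chain), AA467197 and Fam167a had log2 folds of 5.88, 5.45, 5.16, 4.48 and 4.46, and the jejunal cells held 6 to 18 UMIs of each. AA467197 no longer passed without jejunum replicate 2 (edgeR adjusted p = 0.0609).

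Toward the jejunum, Cym, the milk-clotting protease chymosin, was at 43.6 and 211 CPM in the jejunum and 0.18 and 0.23 CPM in the ileum (-9.29, SE 0.96, edgeR adjusted p = 0.0032). Ctrb1, a digestive protease made mainly by the pancreas, was at 47.8 and 59.8 CPM against 1.54 and 1.61 (-5.12, SE 0.24). Ltc4s, the leukotriene C4 synthase, was at 31.4 and 80.7 CPM against 0.07 and 0.34 (-8.28, SE 0.73). Onecut2, a transcription factor of the proximal intestine, was at 25.4 and 106 CPM against 0.66 and 0.77 (-6.58, SE 0.74). In reference cells the log2 folds of Cym, Ctrb1, Ltc4s and Onecut2 were -8.075, -4.43, -7.24 and -6.13. Fam13a, Serpina1a (a serine protease inhibitor), Cyp2d26 (a cytochrome P450), Ptafr (the platelet-activating factor receptor) and B4galnt1 (a ganglioside synthase) had log2 folds of -6.58, -6.35, -6.26, -6.06 and -4.65, of which Serpina1a has near-identical copies and is uncertain.

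The same test in the reference cells gave 1615 of 18463 genes (8.75%), and whether a gene's regional change differed between the groups was tested directly. In a fit of 8 sums, blocked by library, 578 of 17583 genes (3.29%) passed an adjusted p under 0.05 for the interaction of region and group in edgeR, 318 more toward the ileum above the limit (1.81%) and 260 more toward the jejunum (1.48%). The result depended on the cells compared: against reference cells of 5000 to 6000 genes 111 genes passed, and with cells above 7000 genes 2453. It was 80 and 55 without ileum replicates 1 and 2, and 1477 without jejunum replicate 1. The jejunal cells above the limit were 1.85 and 1.73 times as deep as their reference cells and the ileal ones 1.40 and 1.52 times, and the part of that gap in these counts was not tested.

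Cell cycle genes were more toward the jejunum above the limit than in the reference cells. Of 14 tested, 9 passed in that direction and none in the other, beside 1.48 and 1.81% of all genes. Ccna2 (cyclin A2) was at 2.61 and 0.97 CPM above the limit against 5.99 and 4.33 in the ileum, and at 21.7 and 41.3 CPM against 16.8 and 26.3 in the jejunum, an interaction of -2.00 on the log2 scale (SE 0.23, edgeR adjusted p = 0.0011). Cdc20, which activates the anaphase-promoting complex, was at 2.11 and 1.01 CPM against 3.55 and 3.76, and at 23.3 and 36.4 CPM against 12.3 and 18.4 (-2.10, SE 0.27). In each case the ileal cells above the limit had less and the jejunal cells more than their reference cells.

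Top2a, Cdca3 and Cenpf, genes of mitosis, had interactions of -1.77, -1.73 and -1.73. Of 11 villus base genes 7 passed toward the jejunum, of 10 stem genes 4, and of 81 ribosomal protein genes 12. No gene of the 3 lists passed the other way. Of all genes, 1.48% passed toward the jejunum and 1.81% toward the ileum. Without cells that had markers of 2 or more classes, 1 of the 14 cell cycle genes, 0 of 9 stem genes and 6 of 10 villus base genes passed. Stem and cell cycle markers are 2 of the classes counted, so leaving these cells out removes that RNA by rule. The fall in these 2 lists therefore cannot be read as a result. Against reference cells of 5000 to 6000 genes, 5 cell cycle, 3 villus base, 0 stem and 0 ribosomal protein genes passed. Without ileum replicates 1 and 2 in turn, 6 and 5 cell cycle genes passed and none of the other 3 lists. Without jejunum replicate 1, 69 ribosomal protein genes and 8 stem genes passed, and without jejunum replicate 2, 1 and 2.

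Lysosomal genes went the other way, with 20 of 40 more toward the ileum above the limit and none more toward the jejunum. The shares of all genes were 1.81% toward the ileum and 1.48% toward the jejunum. Lgmn had an interaction of 1.53, Ctsl, at the levels given above, 1.00, and Ctsa (cathepsin A) 0.58. Ctsl was higher in the ileum above the limit (log2 fold 0.94, SE 0.19, edgeR adjusted p = 0.0229), while its regional fold in the reference cells was -0.04 (edgeR adjusted p = 0.916). Without ileum replicates 1 and 2 in turn, 3 and 2 of the 40 genes passed, and against reference cells of 5000 to 6000 genes 8 did. The cholesterol genes had no such difference that passed toward the ileum, and 1 of 21 passed toward the jejunum.

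Among the single genes, Enpp3 had an interaction of 1.78 (SE 0.11, edgeR adjusted p = 1.71e-05) at the levels given above. Gatm, the first enzyme of creatine synthesis, was at 254 and 90.5 CPM above the limit against 283 and 76.9 in the ileum, then 10.8 and 7.93 CPM against 50.6 and 39.6 in the jejunum (2.35, SE 0.19, edgeR adjusted p = 0.000116). Fam167a had 2.09. Saa3, an acute phase protein, passed at 3.37 with a level above 20 CPM only in ileum replicate 1, where it was at 44.9 CPM against 35.2, and it was at 1.59 CPM against 11.6 in jejunum replicate 1 and under 1 CPM in the other libraries. Calb1, a calcium-binding protein, passed at 2.06 with a level above 1 CPM only in jejunum replicate 2, at 63.7 CPM against 84.1, and it was at 0.70 CPM against 0.14 in ileum replicate 1. The interactions of Saa3, Calb1 and Fam167a thus draw on levels near the floor.

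**Figure D5:**
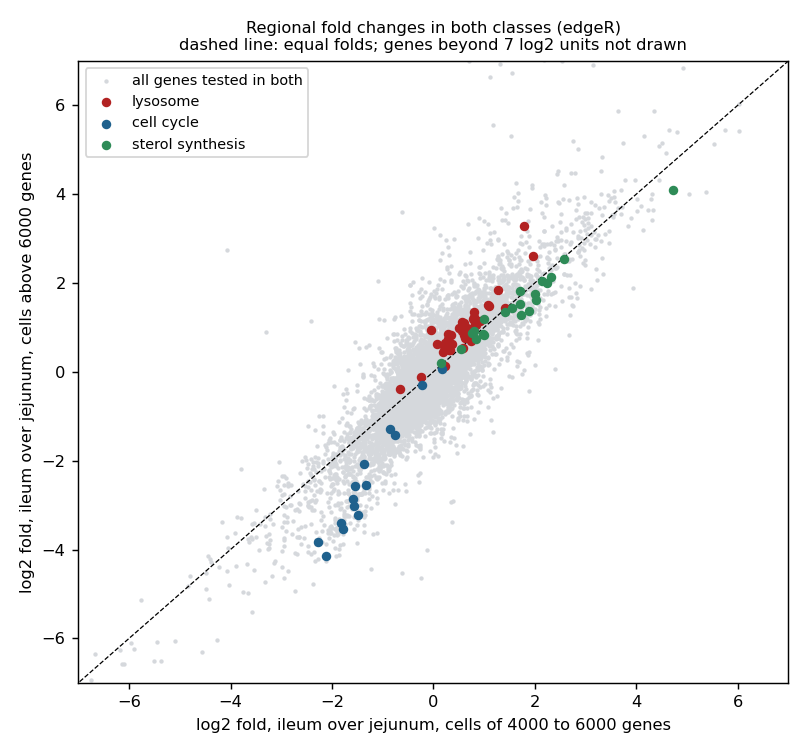
Log2 fold of the ileum over the jejunum in cells above the limit (y axis) against the same fold in reference cells (x axis), with 1 point per gene tested in both, and the lysosomal, cell cycle and sterol synthesis lists in colour. Lysosomal genes lie mostly above the dashed line of equal folds and cell cycle genes below it, where 20 of 40 and 9 of 14 passed the interaction test. Sterol genes lie nearer to it, with a median interaction of -0.11 and 5 of 21 positive.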

How the data were processed

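Single-cell RNA was measured in 4 libraries, 2 ileal and 2 jejunal, from 2 mice at postnatal day 6. The authors processed the reads with PIPseeker at sensitivity level 3 and deposited UMI counts per gene and called cell. The submitters' processing notes name the genome build GRCm39; the annotation is not given in the sources used here. All values were whole numbers, over 32227 features, and no normalized table was used. Libraries held 57951874 to 131400239 UMIs, and the depth of each cell limits which genes are seen in it.

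Groups came from the labels, and the cells from the rule above. The cells and gene lists were chosen with earlier results of these data known, and the 12 ileal and 12 jejunal genes came from these libraries. The interferon list was written after the values were seen. Doublets were not called or removed. Cells were thinned without replacement. Genes named were the 12 highest and 12 lowest past the thresholds with at least 20 CPM and no gene-model symbol (5 and 5 for the interaction), besides list members. UMI counts were summed per library and group and tested with edgeR 4.0.16 (filterByExpr, TMM, quasi-likelihood, Benjamini-Hochberg) in R 4.3.3, with DESeq2 1.42.0 as an alternative. The fits were also run on simulated counts without differences between mice. For the regional test these varied less between libraries than the data did, so that run does not give the error rates here. Neighbours came from scikit-learn 1.9.0, over 2000 variable genes. Intervals are exact 95% Clopper-Pearson and cover counting error only. The upper limit for a class seen in 0 cells is instead 3 cells divided by the number of cells.

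Same-numbered libraries come from the same mouse by their titles, so the numbers pair the samples. Another label of the libraries carries a different mouse number, and the titles were used. Deviations of same-numbered libraries from their region means correlated with r = 0.215 over 15394 genes. Results for some genes are not reported here.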

Additional observations from a re-analysis of the deposited data

Results flagged for a closer look

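The regional change of 578 genes differed between cells above 6000 genes and cells of 4000 to 6000 genes by the interaction test of edgeR. Among the named genes, the interactions toward the ileum were 3.37 for Saa3, 2.35 for Gatm, 2.09 for Fam167a, 2.06 for Calb1 and 1.78 for Enpp3. Those of Saa3, Fam167a and Calb1 draw on levels near the floor in some libraries. The interactions toward the jejunum were -1.73 for Cenpf, -1.73 for Cdca3, -1.77 for Top2a, -2.00 for Ccna2 and -2.10 for Cdc20.

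For 3 gene lists both ileal libraries moved one way and both jejunal libraries the other between the 2 groups of cells, and this difference was not tested for the sums. The cell cycle list had a mean log2 ratio of -0.15 (ileum) and 0.45 (jejunum). The tuft list had -0.035 and 0.061, and the list of ileal genes 0.16 and -0.22.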

How the results depend on the processing

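The share of cells above the limit stayed higher in the ileum under every alternative tried, by 9.18 to 15.9 points when 1 library was left out. The excess of genes at equal depth was 223 genes with cells above 7000 genes, 54.8 against cells of 5000 to 6000 genes and 54.0 at 5000 UMIs (74.7 to 87.3 without 1 library). The difference in cells with 2 classes turned positive with cells above 7000 genes (11.5 points), at 5000 UMIs (0.562), at 20000 UMIs (1.91) and with 3 markers (1.89), and was -2.45 to -0.331 without 1 library, and -2.34 with stem and cell cycle markers as 1 class, an alternative chosen after seeing the data. Genes past 0.5 in 1 direction numbered 505 with cells above 7000 genes, 13 against cells of 5000 to 6000, 90 with 1 CPM added and 78 after thinning (24 to 116 without 1 library). Lists with 1 direction numbered 16 of 28 against cells of 5000 to 6000 genes and 19 to 21 without 1 library. The neighbour excess was 4.59 points at 20000 UMIs (12.3 to 15.1 without 1 library).

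Genes called between regions numbered 3340 with no filter on low counts and 3906 with the replicate block, which pairs the regions of a mouse, and 729 to 1964 without 1 library. The interaction count was 2453 with cells above 7000 genes, 111 against cells of 5000 to 6000, 354 without cells of 2 or more classes, 365 with DESeq2, 1197 with no filter and 278 with thinned sums, and 55 to 1477 without 1 library. Where 1 library was left out of a region, the other was assumed to vary like the rest. Against cells of 5000 to 6000 genes the mean log2 ratios of 4 lists changed sign, to 0.0834 for enteroendocrine, -0.0265 for tuft, 0.163 for red blood cell and -0.0120 for stress genes. Without 1 library the sign changed for 5 lists, with ranges of -6.07e-05 to 0.260 for cell cycle (lowest without jejunum replicate 2), -0.0115 to 0.0304 for tuft, -0.233 to 0.0132 for fibroblast and muscle, -1.01 to 0.776 for red blood cell and -0.117 to 0.0591 for ileal genes. The cause of these changes was not tested. The 387 jejunal cells, 135 of them in replicate 1, limit what can be seen in that region.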

Other observations

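Interferon-induced genes, a list of 22 written after the values were seen and so given without weight, were lower in the cells above the limit. Of its 20 genes in the files 16 were measured, and 10 were lower in all 4 libraries and none higher, beside 12.1 and 29.8% of all genes. The summed level was 1193 and 989 CPM in the ileum against 1336 and 1081 in cells of 4000 to 6000 genes, and 892 and 862 CPM in the jejunum against 1454 and 1281. In the jejunum the sum went from 1657 to 722 CPM and from 1410 to 567 CPM between the bins of 4000 to under 5000 and of over 7000 genes. In the interaction test of edgeR 10 of the 20 genes passed toward the ileum, beside 1.81% of all genes, among them Ifit3 at 1.07, Trim30a at 1.07 and Isg15 at 0.74. Without ileum replicates 1 and 2 in turn 2 of 19 and 3 of 20 passed, and against cells of 5000 to 6000 genes 4 of 19.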
